A study of Mus musculus with 10 samples.

Results

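DNA methylation was examined in 7 windows of the mouse genome (mm10) around imprinted genes that lie inside other genes. The windows cover Mcts2, Nap1l5, Zrsr1, Inpp5f, Nnat, Cdh15 and Peg13. The windows were chosen with earlier results of these data known. Members were all CpG cytosines of the deposited table that fall between the fixed borders of a window, whatever their values. They numbered 266 of the 1348062 CpG cytosines used (autosomes, X and Y), at 178 CpG sites, of which 88 were read on both strands. No window was empty, and the number of CpG cytosines ranged from 11 at Inpp5f to 103 at Zrsr1.

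Genomic imprints are methylation marks set in the germline of a parent and kept on that parent's allele in the body of the offspring. Mcts2, Nap1l5, Zrsr1 and the short Inpp5f transcript arose by retrotransposition of X-linked genes into introns of host genes, and are known for a promoter that is methylated on the maternal allele and a transcript made from the paternal allele. Nnat, which encodes a small membrane protein of nervous and endocrine tissue, lies in an intron of Blcap, and Peg13, a non-coding RNA, lies in an intron of Trappc9. Cdh15, which encodes a cadherin of muscle cells, has a maternal imprint within its gene body. In body cells such regions carry methylation on 1 of the 2 alleles, and in germ cells of the fetal testis the maternal marks are known to be erased, while the germline gene promoters that body cells keep methylated become unmethylated.

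Reduced representation bisulfite sequencing (RRBS), which reads CpG-rich fragments cut at CCGG, had been applied to prospermatogonia of F1 C3H/HeN fetuses. The dams of the arsenic group drank water with sodium arsenite from mid to late gestation, and the dams of the control group drank water without it. Cells were isolated from testes late in gestation with magnetic beads and an antibody against Thy1 (CD90.2), and the testes of many embryos were combined into each of 5 control and 5 arsenic pools. Litters cannot be told apart within a pool, and the study had left out a further arsenic sample for its lower read number. Total CpG reads ranged from 44207245 to 66570870 per pool, and each CpG of the table was covered by at least 10 reads in all 10 pools. The promoters of 11 germline genes, such as Dazl with a mean level of 46.3% and Ddx4 with 65.0%, had mean levels from 44.5 to 69.2%, which does not match the unmethylated state known of these promoters in germ cells. The stretch upstream of H19 that is methylated on the paternal allele had 4 CpGs, with 75.6% ± 4.82 in control and 60.6% ± 14.4 in arsenic pools (SD, n = 5; exact permutation test, unadjusted, p = 0.0238), and 35.5% in arsenic 1. The same test was also run at the imprinted loci, host genes and promoters compared further on, without adjustment for their number. By real-time PCR, the study had found more Thy1 and Oct4 RNA in this fraction than in its type A spermatogonia fraction. In its principal component analysis of methylation, samples clustered by stage. Because of the germline promoter levels, the samples are called pools here, and no level is assigned to a cell type.

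The stretch of up to 180 bases outside untranslated regions with the most table CpGs is printed for each window, from the plus strand of GRCm38 (RefSeq) and with the CpGs read in the table in capitals, since their spacing and density set what RRBS can see. Nap1l5 and Peg13 are transcribed from the minus strand, and the other genes from the plus strand.
Mcts2, chr2:152686851-152687029: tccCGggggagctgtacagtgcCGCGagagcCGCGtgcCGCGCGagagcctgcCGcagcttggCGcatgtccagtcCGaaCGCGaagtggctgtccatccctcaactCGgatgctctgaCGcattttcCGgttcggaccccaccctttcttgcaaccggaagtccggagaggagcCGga
Nap1l5, chr6:58906721-58906881: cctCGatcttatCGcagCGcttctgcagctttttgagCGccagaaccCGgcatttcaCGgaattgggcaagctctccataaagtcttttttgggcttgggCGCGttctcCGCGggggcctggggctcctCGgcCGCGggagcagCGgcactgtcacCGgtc
Zrsr1, chr11:22973996-22974149: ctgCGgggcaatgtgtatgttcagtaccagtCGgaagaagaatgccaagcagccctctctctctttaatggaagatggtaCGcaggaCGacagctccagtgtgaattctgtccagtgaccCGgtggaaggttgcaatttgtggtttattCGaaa
Inpp5f, chr7:128688045-128688210: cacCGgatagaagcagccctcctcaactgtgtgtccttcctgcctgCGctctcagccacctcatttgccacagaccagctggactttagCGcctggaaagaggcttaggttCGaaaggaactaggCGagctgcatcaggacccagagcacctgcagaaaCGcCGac
Nnat, chr2:157560329-157560481: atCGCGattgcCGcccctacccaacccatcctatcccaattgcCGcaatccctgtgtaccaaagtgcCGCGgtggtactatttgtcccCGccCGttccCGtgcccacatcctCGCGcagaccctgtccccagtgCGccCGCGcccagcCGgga
Cdh15, chr8:122865214-122865367: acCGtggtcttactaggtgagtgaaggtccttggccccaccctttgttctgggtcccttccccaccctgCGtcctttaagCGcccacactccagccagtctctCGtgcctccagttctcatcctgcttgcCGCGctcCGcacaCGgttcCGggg
Peg13, chr15:72810537-72810679: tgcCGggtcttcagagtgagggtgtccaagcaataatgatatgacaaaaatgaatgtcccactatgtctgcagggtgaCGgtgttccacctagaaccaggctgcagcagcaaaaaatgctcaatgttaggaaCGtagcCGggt
At Mcts2 3 CpGs follow each other without a base between them, the longest such run among the printed stretches. The printed Nnat stretch holds 15 sites, and that of Peg13 holds 4. Levels over the printed CpGs averaged from 28.1% at Inpp5f to 53.1% at Cdh15.

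The level of a window was the sum of methylated reads divided by all reads over its CpGs, in percent. Mean levels over the 10 pools ordered the windows from Inpp5f with 28.1%, over Nap1l5 (35.2%), Peg13 (35.5%), Zrsr1 (38.7%), Nnat (43.3%) and Mcts2 (45.4%), to Cdh15 with 51.9%. The SD between pools was 6.58 to 8.86 points. Neighbours in this order differed by less than the SD of either, except Inpp5f and Nap1l5, whose gap lay between their SDs. A pooled sample cannot tell methylated alleles in a share of its cells from partly methylated molecules. Of the 266 CpGs, 252 or 94.7% had a mean between 20 and 80%, against 38.4% of all CpGs. The other 14 were below 20%, where 36.9% of all CpGs lay, and none was above 80%, where 24.7% of all CpGs lay.

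The comparison of the groups asked whether gestational arsenic exposure went with another methylation level at these imprints. In 4 windows the arsenic mean was the higher one and in 3 the lower one. At the window level defined above, no window passed the exact permutation test at 0.05. Over the 252 assignments of pools to groups, p-values of the exact permutation test, two-sided and unadjusted, ran from 0.151 to 0.841, where the design allows 0.00794. The levels of the groups overlapped in all 7 windows, and among 123717 windows and 2 kb tiles with at least 3 CpGs, 1.48% had no overlap. Limma, run on log2 ratios of methylated over unmethylated reads, gave adjusted p-values from 0.720 to 0.965 for the windows, and called 0 of the 123717 (0%). None of the 7 windows had an unadjusted p under 0.05 in limma, which 7.55% of all tiles and windows did. P-values here measure the spread between pools. Per the study, each dam gave at most 2 testes to a pool. Neither the study nor the labels say whether dams were shared between pools.

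**Figure D1:**
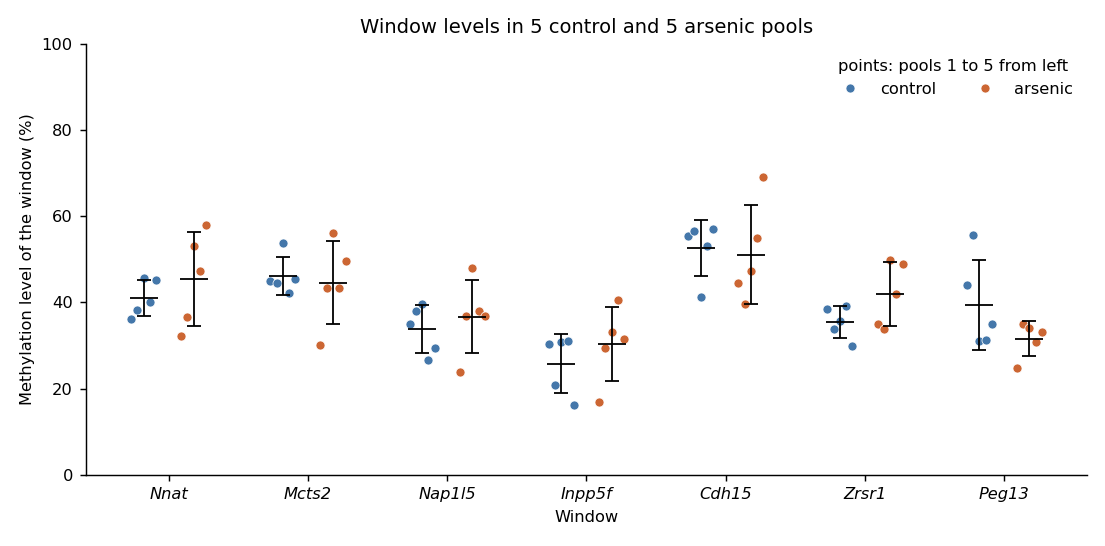
Methylation level (%, y axis) of the 7 windows (x axis) in the 5 control and 5 arsenic pools, with the group mean and SD as black bars. The groups overlap in every window, and the arsenic pools span 24.8 to 35.1% at Peg13 but 39.6 to 69.1% at Cdh15.

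Mcts2, a retrogene copy that encodes a protein related to the translation factor MCTS1, starts at position 152687035 of chromosome 2 within an intron of H13, which encodes a signal peptide peptidase. Its window (152686000 to 152688000) held 48 CpG cytosines between 152686854 and 152687149. The control pools 1 to 5 had levels of 44.9, 44.6, 53.8, 42.2 and 45.4%, and the arsenic pools 1 to 5 had 30.2, 43.4, 56.2, 43.4 and 49.7%. Arsenic 1 was the lowest of all pools and arsenic 3 the highest, so that the arsenic group enclosed the control group. The means were 46.2% ± 4.46 and 44.6% ± 9.61 (SD, n = 5; exact permutation test, p = 0.770). The difference of -1.60 points became 1.99 points without arsenic 1 and 0.311 points without control 3. Upstream of the start, 31 CpGs in the H13 intron averaged 51.4%, and 17 CpGs in the untranslated region of Mcts2 averaged 39.8%. The highest CpG of the window, at 152686854 on the plus strand, had a mean of 56.6%, and the lowest, at 152687078 on the minus strand, 34.1%.

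Nap1l5, which encodes a protein of the nucleosome assembly family, starts at 58907076 of chromosome 6 on the minus strand, inside an intron of Herc3, a ubiquitin ligase gene. All 34 CpG cytosines of the window (58906000 to 58908000) lay in the coding sequence of Nap1l5. Levels in control 1 to 5 were 35.04, 38.1, 39.6, 26.6 and 29.4%, and in arsenic 1 to 5 they were 23.9, 36.9, 48.0, 37.9 and 36.8%. Arsenic 1 was again the lowest pool and arsenic 3 the highest, with the other 3 arsenic pools inside the control range. The group means of 33.7% ± 5.56 and 36.7% ± 8.54 (SD, n = 5) differed by 2.96 points (exact permutation test, p = 0.571). The highest CpG, at 58906768 on the plus strand, averaged 48.2%, and the lowest, at 58906851 on the minus strand, 6.22%. These CpGs lie in adjoining stretches that differ by strand, as described further on.

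Zrsr1, which encodes a splicing factor related to U2AF, starts at 22972005 of chromosome 11 inside an intron of Commd1, a gene of copper handling. The window (22971500 to 22974500) was the best covered, with 103 CpG cytosines and 3959 to 7397 reads per pool. Of these CpGs 73 lay in the untranslated region of Zrsr1 with a mean of 38.2%. Control pools 1 to 5 stood at 38.5, 33.9, 35.6, 39.2 and 29.8%, and arsenic pools 1 to 5 at 35.1, 33.8, 49.8, 42.0 and 49.0%. Arsenic 3, 4 and 5 were above every control pool, while arsenic 1 and 2 lay within the control range. The means of 35.4% ± 3.77 and 42.0% ± 7.50 (SD, n = 5) differed by 6.55 points, with the smallest p of the 7 windows (exact permutation test, p = 0.151). The mean level was higher in the arsenic group at 100 of the 103 CpGs, which share reads within a fragment and are not independent. When the strands of a site were merged and each site counted once, the means lay 9.05 points apart (unadjusted p = 0.0159, exact permutation test). An unweighted mean over CpGs gave 7.86 points (exact permutation p = 0.0714), and the cause of these shifts was not tested. The highest CpG, at 22973141 on the minus strand, averaged 52.6%, and the lowest, at 22972373 on the plus strand, 23.1%.

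The largest difference within Zrsr1 was on the plus strand of the CCGG fragment from 22972581 to 22972758, where 12 CpGs of the untranslated region were read together. That fragment had 26.4, 43.2, 27.4, 10.05 and 10.9% in control 1 to 5, and 40.7, 29.5, 52.6, 22.3 and 62.0% in arsenic 1 to 5. Arsenic 3 and 5 exceeded every control pool and the other arsenic pools did not. The difference was 17.8 points between means of 23.6% ± 13.7 and 41.4% ± 16.3 (SD, n = 5; exact permutation test, p = 0.119). It was chosen after its values were seen.

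Inpp5f encodes an inositol phosphate phosphatase, and its imprinted short transcripts start inside the gene, at 128687546 and 128688489 of chromosome 7 in the annotation. The window (128687500 to 128689500) held 11 CpG cytosines at 7 sites, all of them intronic. Levels in the control pools 1 to 5 were 30.3, 20.9, 30.7, 31.0 and 16.1%, with 16.9, 29.4, 33.2, 40.5 and 31.6% in the arsenic pools. The lowest pools were control 5 and arsenic 1, and only arsenic 3, 4 and 5 exceeded all controls. The means were 25.8% ± 6.89 and 30.3% ± 8.58 (SD, n = 5), a difference of 4.49 points (exact permutation test, p = 0.405). This window had the fewest reads, 258 to 561 per pool, and the 95% Wilson interval of control 5 was 12.99 to 19.8%, which covers counting error only. Its highest CpG, at 128688048 on the plus strand, averaged 43.4%, and its lowest, at 128688171 on the minus strand, 5.66%.

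Nnat has 8 annotated starts between 157560078 and 157560130 of chromosome 2, and the whole window (157559500 to 157562000) lies within an intron of Blcap. Of its 41 CpG cytosines 16 were in coding sequence, 13 in untranslated regions and 12 in introns of Nnat, with close means of 41.9, 42.5 and 43.9%. The levels were 36.2, 38.2, 45.6, 40.2 and 45.3% in control 1 to 5, and 32.3, 36.7, 53.1, 47.2 and 57.9% in arsenic 1 to 5. Here too arsenic 1 was lowest, and arsenic 3, 4 and 5 were above every control pool. The group means were 41.1% ± 4.21 and 45.4% ± 10.8 (SD, n = 5), which differed by 4.32 points (exact permutation test, p = 0.421). The CpG at 157560247 on the minus strand was the highest with 63.2%, and that at 157561688 on the plus strand the lowest with 27.5%. The latter lies in the downstream group of 3 CpGs, away from the starts, with 10 to 30 reads per pool.

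The window in Cdh15 (122864000 to 122866000 of chromosome 8) contains no annotated start and was read almost only on the minus strand, with 14 of 15 CpG cytosines. Coding sequence held 12 of them and an intron 3. Control pools 1 to 5 had 55.4, 56.6, 41.3, 53.2 and 57.0%, and arsenic pools 1 to 5 had 44.5, 39.6, 47.3, 54.9 and 69.1%. Control 3 stood apart from the other controls, and the arsenic pools spread from below to above the control range. The means were 52.7% ± 6.56 and 51.1% ± 11.5 (SD, n = 5; exact permutation test, p = 0.841). The difference of -1.58 points turned to 0.0616 points without arsenic 1 and to 1.29 points without arsenic 2. The highest CpG, at 122865364 on the minus strand, averaged 62.6%, and the lowest, at 122865001 on the plus strand, 35.9%.

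Peg13 starts at 72810324 of chromosome 15 on the minus strand within an intron of Trappc9, which encodes a subunit of a vesicle tethering complex. Its window (72808500 to 72812000) held 14 CpG cytosines, 5 in the Peg13 exon with a mean of 38.3% and 9 upstream of the start with a mean of 38.8%. The control pools 1 to 5 had 44.04, 55.6, 31.0, 31.4 and 34.99%, against 24.8, 35.1, 34.1, 30.8 and 33.0% in the arsenic pools 1 to 5. All 5 arsenic pools were below the control mean, but control 3, 4 and 5 lay among them, and control 1 and 2 were the pools that stood higher. The means of 39.4% ± 10.4 and 31.6% ± 4.08 (SD, n = 5) differed by -7.84 points (exact permutation test, p = 0.190). Means of single CpGs ranged from 31.7% at 72810669 to 48.7% at 72810908, both on the plus strand.

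**Figure D2:**
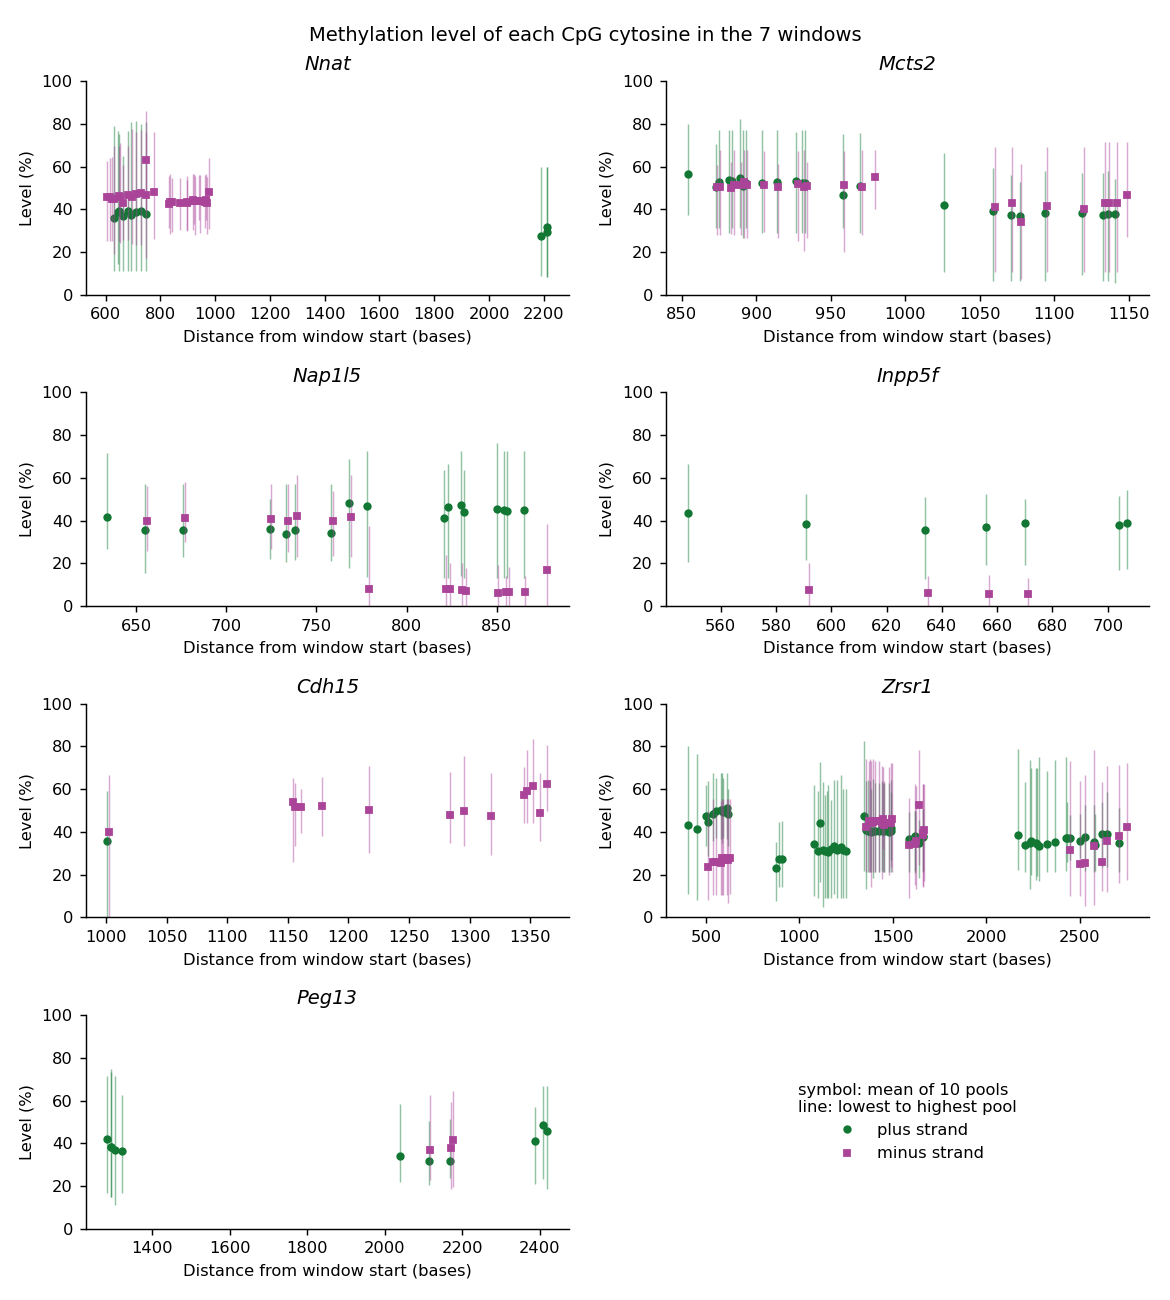
Methylation level (%, y axis) of every CpG cytosine against its distance from the window start in bases (x axis), with the mean of the 10 pools as a symbol, the lowest to highest pool as a line, and the strands in different colours. Most means lie between 20 and 60%, and the low minus-strand CpGs of Nap1l5 and Inpp5f stand out under 20%.

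Differentially methylated cytosines (DMCs) were called by logistic regression over all CpGs, with q of at most 0.01 and at least 10 points between the pooled reads. Of the 266 CpGs in the windows, 9 were DMCs with a lower level in the arsenic group and 1 was a DMC with a higher level. Over all CpGs, 1.48% were called lower and 0.784% higher. All 9 lower DMCs were on the plus strand of Mcts2, between 152687026 and 152687141, on or at the edge of a CCGG fragment, so they largely share reads. The 1 higher DMC was at 22972625 on the plus strand of Zrsr1. The other 5 windows held none.

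At the Mcts2 DMC with the largest difference, position 152687094 in the untranslated region, the controls 1 to 5 had 43.5, 57.9, 42.6, 39.4 and 38.3%. The arsenic pools 1 to 5 had 6.25, 29.3, 41.1, 42.2 and 40.7%. Only arsenic 1 was far below the others, arsenic 2 was lower than all controls, and arsenic 3, 4 and 5 lay within the control range. The pooled reads differed by -13.5 points (logistic q = 0.00129), but limma, which uses the spread between pools, gave an adjusted p of 0.839. At the 9 DMCs arsenic 1 had 5.56 to 10.6%, and no other pool was below 27.4%. Without arsenic 1 none of the 9 was called, and the windows then held 1 DMC, which was a higher one. None of them was called without control 2 either, where 9 DMCs, all higher and all in Zrsr1, were found. Of all CpGs, 2.46% were called without arsenic 1 and 2.23% without control 2.

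The drop in arsenic 1 was seen on both strands of that fragment and not in the neighbouring one. On the fragment from 152687026 to 152687149, arsenic 1 had 6.58% on the plus strand and 10.7% on the minus strand, where the medians of the 10 pools were 41.4 and 39.3%. On the upstream fragment from 152686854 to 152686980, it had 55.2 and 45.7%, against medians of 52.0 and 52.7%. Arsenic 1 was thus within the range of the other pools on the upstream fragment and the lowest pool on both strands of the downstream one. The first plus-strand CpG of the latter, at 152687026, lies in the intron of H13 before the annotated start, and there arsenic 1 had 10.6% and the other 9 pools had 37.4 to 66.2%. At 152687078 on the minus strand control 5 had 7.14%, although its fragment strand stood at 43.9%.

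**Figure D3:**
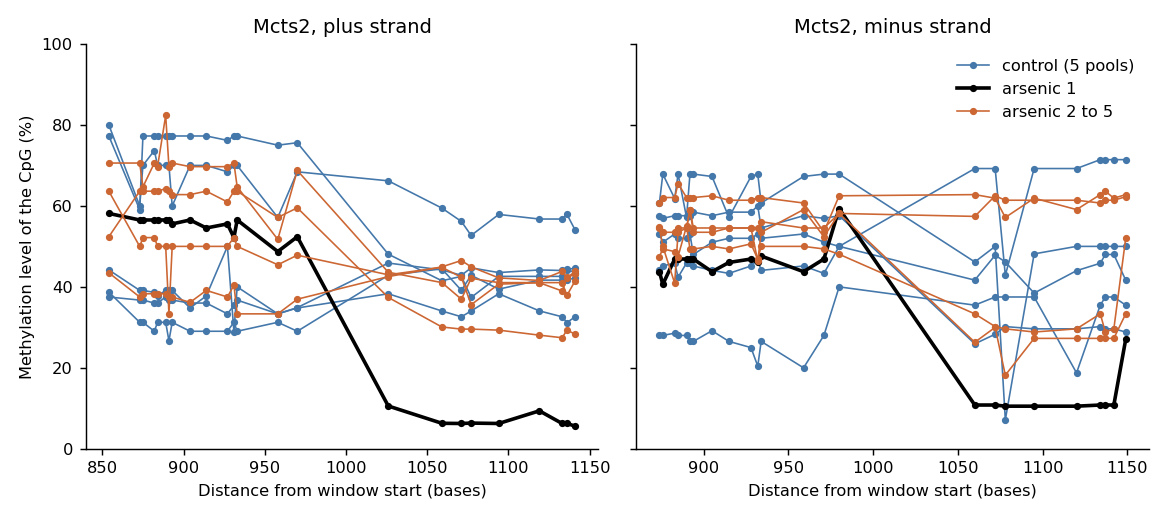
Methylation level (%, y axis) of the CpGs of Mcts2 on the plus strand (left) and the minus strand (right) against the distance from the window start in bases (x axis), 1 line per pool, with arsenic 1 in black. From position 1026 on, arsenic 1 lies at 5.56 to 10.6% on the plus strand, and its minus strand drops as well.

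The higher DMC in Zrsr1 had 26.1, 40.7, 25, 4.76 and 10% in control 1 to 5, and 41.7, 28.6, 52.0, 21.6 and 63.4% in arsenic 1 to 5. Arsenic 1, 3 and 5 were above every control pool, and the other 2 arsenic pools lay within the control range. The group means were 21.3% ± 14.3 and 41.5% ± 17.0 (SD, n = 5) at 21 to 72 reads per pool (pooled difference 17.3 points, logistic q = 0.00785, limma adjusted p = 0.830). An overdispersion F test of the same regression called 0 DMCs in the windows and 0% of all CpGs. Limma also called 0 of the 266 CpGs and 0% of all CpGs, with 6 of the 266 at an unadjusted p under 0.05, which 6% of all CpGs reached. The levels of the groups overlapped at every CpG of the windows, where 0.693% of all CpGs had none.

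The strands of a CpG are read from different molecules, so their levels were compared at sites read on both. At the 4 such sites of Inpp5f the plus strand had 34.3, 46.3, 38.8, 40.1 and 18.1% in control 1 to 5, and 21.7, 43.6, 43.3, 46.3 and 43.8% in arsenic 1 to 5. The minus strand had 0, 0, 3.06, 6.98 and 13.3% in control 1 to 5, and 3.80, 5.56, 11.5, 14.9 and 2.94% in arsenic 1 to 5. The plus strand was higher in 10 of 10 pools, with means of 37.6 and 6.20%. Of 9029 tiles of 2 kb with at least 3 such sites and a mean of 15 to 60%, 5.56% had the same strand higher in all 10 pools, and 1.66% also had a mean gap of at least 20 points. The minus strand of Inpp5f rested on 40 to 188 reads per pool.

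Nap1l5 showed a like gap in part of its window. On the fragment from 58906634, which lies nearer to the end of the gene, the strands were close, with means of 35.2% on the plus strand and 40.7% on the minus strand over 6 CpGs each. On the next fragment the 9 plus-strand CpGs averaged 45.0% and the 9 minus-strand CpGs 7.17%. The minus strand of that fragment was at 0% in control 3, 4 and 5 and arsenic 4, and between 10.1 and 14.0% in the other 6 pools, at a coverage of 10 to 30 reads per CpG. The plus strand was low in control 1 with 13.3% and arsenic 1 with 17.0%, and the other pools had 39.4 to 70.4%. In Zrsr1, the fragment at the start had 49.1% on the plus strand and 26.3% on the minus strand. Over all sites read on both strands, the mean gap was 5.04 points in Nap1l5 and 4.17 points in Zrsr1, with the plus strand higher in 7 and 6 of 10 pools. What sets the strands apart was not tested.

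CpGs on the same fragment strand moved together. There were 22 fragment strands with at least 5 CpGs in the windows, which held 206 of the CpGs. Within a pool, the SD between the CpGs of a fragment strand had a median of 2.76 points, while the SD of its level between the 10 pools had a median of 12.96 points. The spread between pools was the larger one in 22 of 22. Their means lay between 7.17 and 52.1%, and 21 of 22 were between 20 and 60%.

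Each window was then compared with the table CpGs within 20 kb on either side, paired within the pool. Nap1l5, Inpp5f and Zrsr1 differed from their surroundings in the same direction in 10 of 10 pools (exact sign-flip permutation tests, two-sided and unadjusted, p = 0.00195 each, the smallest this test can give). Inpp5f had 28.1% against 83.6% around it, a difference of -55.5 points. Nap1l5 had 35.2% against 53.8%, a difference of -18.5 points. Both comparisons rest on few neighbours, 7 CpGs for Inpp5f and 4 for Nap1l5. Zrsr1 went the other way, with 38.7% in the window against 17.9% around it, and a difference of 20.7 points. There 55 of the 62 surrounding CpGs had a mean under 20%, and with 5 kb on either side a sole CpG remained and the difference was -46.4 points.

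In the other 4 windows the difference from the CpGs within 20 kb did not pass the exact test at 0.05. Nnat had 43.3% against 45.6% (exact sign-flip permutation test, p = 0.373), Mcts2 45.4% against 43.7% (exact sign-flip permutation test, p = 0.359) and Peg13 35.5% against 34.5% (exact sign-flip permutation test, p = 0.621). Cdh15 was lower in 9 of 10 pools, with 51.9% against 58.7% (exact sign-flip permutation test, p = 0.0566). Without arsenic 5, the pool in which it was higher, the difference in Cdh15 was -9.12 points (exact sign-flip permutation test, p = 0.00391), and leaving out each of the other 9 pools in turn gave p from 0.0625 to 0.113 in the exact test. With 50 kb on either side all 4 windows passed, with -8.73 points in Nnat (exact sign-flip permutation p = 0.0137), and with 11.5 in Mcts2, -24.1 in Cdh15 and -14.0 in Peg13 (exact sign-flip permutation p = 0.00195 each). With 5 kb on either side, the difference was 3.33 points in Nnat (54 CpGs, exact sign-flip permutation p = 0.209). In Cdh15 it was then 9.46 points (14 CpGs, exact sign-flip permutation p = 0.0195). The sign thus changed with the width in Nnat, Cdh15 and Peg13. These mean levels hide unlike mixtures, since the surroundings of Nnat held 34 CpGs under 20% and 13 over 80%, and those of Mcts2 held 23 and 9.

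**Figure D4:**
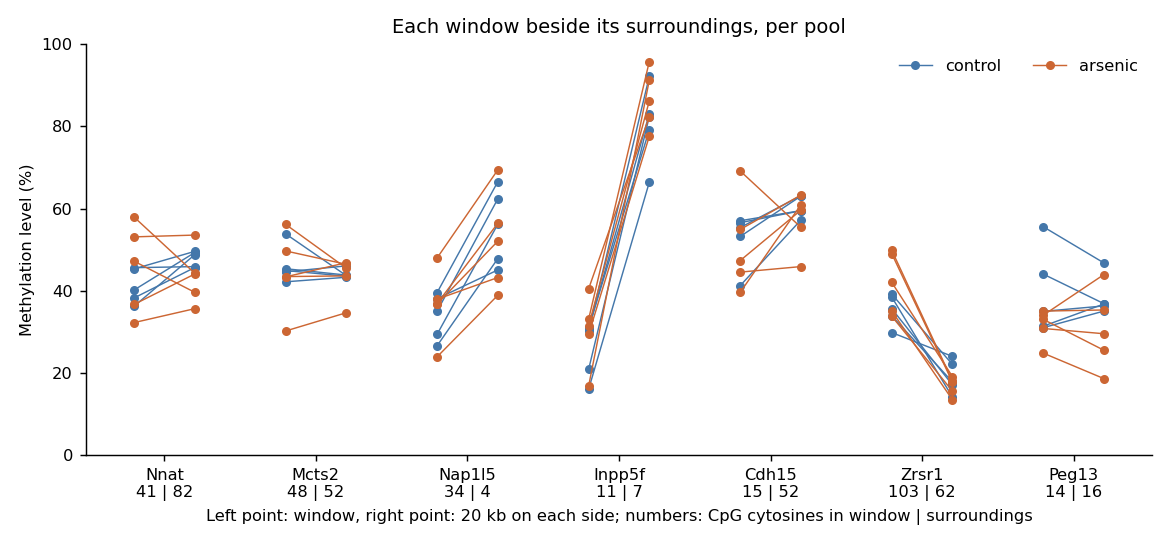
Methylation level (%, y axis) of each window (left point) and of the CpGs within 20 kb on either side (right point), joined for each pool and coloured by group, with the number of CpG cytosines under each name. All 10 lines rise at Nap1l5 and Inpp5f and fall at Zrsr1, and they cross at Nnat and Peg13.

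The promoters of the host genes stood apart from the windows they contain. Of the 7 host genes 4 had CpGs in the table, and H13, Cdh15 and Commd1 had none. Blcap, Herc3, Inpp5f and Trappc9 had mean levels from 0.498 to 1.40%, with no pool above 7.87%. The window in Inpp5f was thus at 28.1% and the main promoter of the same gene, with 8 CpGs, at 0.793%. None of the 55 CpGs of these promoters was a DMC, where 1.48% of all CpGs were called lower and 0.784% higher. At such low levels a drop of at least 10 points had next to no room, so the lack of lower DMCs says little.

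Other genes known for a maternally methylated promoter gave like levels in most cases. In 7 of 8 genes with CpGs within 1 kb of a start, Mest averaged 53.9%, Airn 40.01%, Peg10 37.7%, Snrpn 34.0%, Plagl1 33.5%, Kcnq1ot1 19.6% and Grb10 2.04%, and Peg3 had no CpG. The level of Mest rested on 5 CpGs, where the arsenic mean was 7.23 points higher (exact permutation test, unadjusted, p = 0.437). At the 1 CpG of its second start cluster, the arsenic mean was lower, with a difference of -20.5 points (exact permutation test, unadjusted, p = 0.0238). The 81 CpGs at 1 of the 3 start clusters of Grb10 had 1.28%, and the start cluster with its only other CpG had 67.6%. Genes that set or guard imprints had low promoter levels in most cases. Uhrf1, Dnmt3a and Zfp445 had means of 1.71, 1.63 and 1.48% at 57, 23 and 14 CpGs, and Dnmt1 had 2.99% at 1 CpG. Zfp57, the zinc finger protein that binds the methylated allele of imprints, had 21.2% at 2 CpGs. Dnmt3l, the cofactor of the methyltransferases that set imprints in germ cells, had 61.5% at 4 CpGs, with group means of 54.6% ± 10.9 (control) and 68.3% ± 10.02 (arsenic) (SD, n = 5; exact permutation test, p = 0.0714). Trim28 and Dppa3 had no CpG. Among the 189 CpGs of these imprinted loci, Kcnq1ot1 held 3 lower DMCs and Snrpn 2 higher ones. Among the imprint regulators, with the CpG numbers given above, Dnmt3l held 1 higher DMC and the others none. The shares over all CpGs were 1.48% for lower and 0.784% for higher DMCs.

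ZFP57 is known to bind the hexamer TGCCGC when its CpG is methylated, so the windows were searched for TGCCGC and its reverse complement GCGGCA, each of which holds a CpG. Nnat held 8, Inpp5f and Peg13 6 each, Nap1l5 5, Mcts2 3, and Cdh15 and Zrsr1 2 each. Of the same-length tiles with table CpGs, 0.0209% held as many as Nnat, 0.0785% as many as Inpp5f and 8.54% as many as Zrsr1. At least 1 match was found in 24.6 to 33.2% of such tiles. The tiles were poorer in CpGs, with a median of 28 in 2 kb against 66 to 89 in the windows of that length. A match is a description of letters and not a binding site.

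Of these hexamers, 12 had their CpG in the table, 5 at Nnat, 3 at Mcts2, 2 at Cdh15, and 1 each at Nap1l5 and Peg13. In the printed Nnat stretch, the matches that start at 157560337, 157560369 and 157560393 had means of 43.6, 43.2 and 43.3% on the minus strand. The 3 in the printed Mcts2 stretch had 50.4 to 54.7% on either strand. At Nap1l5 the match had 44.9% on the plus strand and 6.47% on the minus strand, as its fragment did.

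Some pools stood low or high in several windows. Arsenic 1 was the lowest pool in 4 of the 7 windows and among the lowest 3 in 6, and arsenic 3 and 5 were each among the highest 3 in 5 windows. The mean over the 7 windows was 40.6, 41.1, 39.7, 37.7 and 36.9% in control 1 to 5, and 29.7, 36.4, 45.9, 42.4 and 46.7% in arsenic 1 to 5. Arsenic 1 and 2 thus lay below all control pools, and arsenic 3, 4 and 5 lay above them. The group means were 39.2% ± 1.85 and 40.2% ± 7.17 (SD, n = 5). The mean level over all CpGs of the table was also lowest in arsenic 1, with 42.1%, and highest in arsenic 5, with 47.3%, and ranged from 45.2 to 46.7% in the other 8 pools. The part of this shift in the levels of the windows was not tested.

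The promoters of the germline genes, which mark body cells by their methylation, had their lowest and highest means in the same pools as the windows, while arsenic 3, above all control pools in the windows, lay within the control range here. Of 14 such genes 11 had CpGs, and Sycp3, Mov10l1 and Dpep3 had none. Their mean was 54.9, 59.6, 61.1, 59.9 and 55.7% in control 1 to 5, and 47.5, 55.7, 58.6, 65.8 and 73.1% in arsenic 1 to 5. Arsenic 1 had the lowest and arsenic 5 the highest mean of both lists, and also of the other maternally methylated genes, with 20.96 and 46.0%. None of the 11 promoters had a mean under 10%, and 8 were above 50%. Of all CpGs, 1.48% were lower DMCs and 0.784% higher ones. Among the 211 CpGs of these promoters, Slc25a31 held 2 higher DMCs, and Ddx4 and Tex101 held 1 lower DMC each. The part of these markers in the levels of the windows was not tested. With both arsenic 1 and arsenic 5 left out, a setting chosen after seeing the data, the logistic regression called 1 DMC in the windows. It called 1.52% of all CpGs in that setting.

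**Figure D5:**
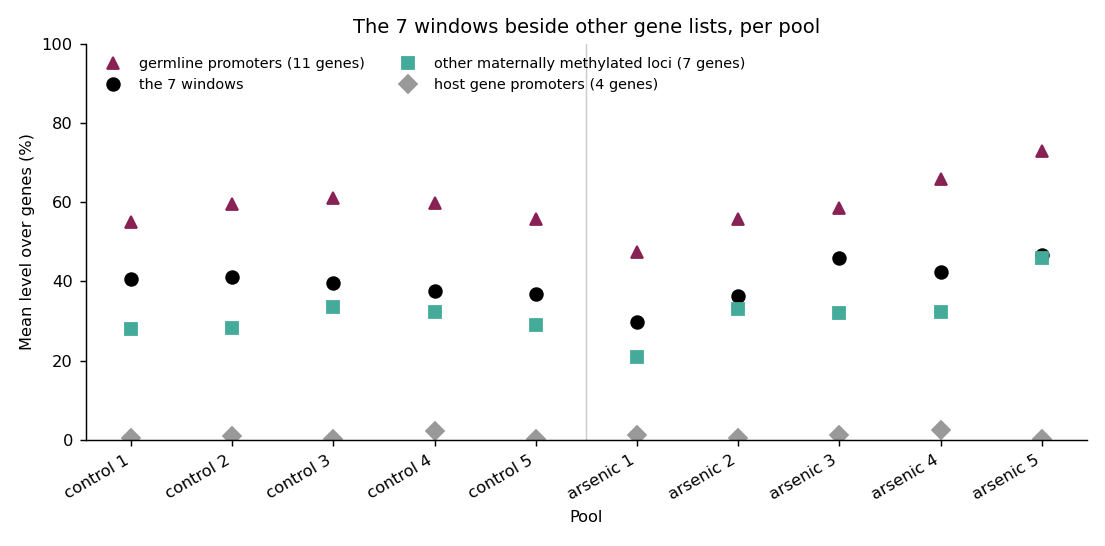
Mean methylation level over genes (%, y axis) of the 7 windows, 11 germline promoters, 7 other maternally methylated genes and 4 host gene promoters in each pool (x axis). Arsenic 1 is lowest and arsenic 5 highest in the upper 3 lists, and the host gene promoters are at most 2.50% in all pools.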

How the data were processed

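Prospermatogonia of 5 control and 5 arsenic pools had been profiled by RRBS. The authors trimmed reads with Trim Galore 0.6.5, mapped them to mm10 with Bismark 0.22.3 and united CpG calls with methylKit 1.22.0, per the submitters' processing notes and the methods of the study, keeping strands apart. The deposited table holds raw counts of reads, methylated reads and unmethylated reads per CpG and sample. Of 1349101 entries, 158 mitochondrial and 881 scaffold entries were left out. The lowest coverage was 10. Groups came from sample titles.

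A level is methylated reads over all reads, in percent. Window levels were compared by exact permutation tests over pools, and windows with their surroundings by exact sign-flip tests. DMCs came from a likelihood ratio test of a logistic regression per CpG with Benjamini-Hochberg q over all CpGs. This test takes reads as independent. Limma 3.58.1 was run on log2((methylated + 1)/(unmethylated + 1)) of all CpGs, and of all 2 kb tiles with at least 3 CpGs, the windows taking the place of tiles, with an adjusted p under 0.05. The fits were tested on simulated data. Annotation was GENCODE M21 (basic), and promoters reached 1 kb upstream and 100 b downstream of starts. Sequences and CCGG fragments were read from the GRCm38 reference of RefSeq, where 1347905 table CpGs lay at a CpG of the stated strand. Software was R 4.3.3 and Python 3.11.15 with scipy 1.17.1, pysam 0.24.0, numpy 2.4.6 and pandas 2.3.3. The windows and the lists were chosen with earlier results of these data known. In each window the CpGs with the highest and lowest mean were named, and the DMC with the largest pooled difference. Depth was 44207245 to 66570870 CpG reads per pool. Alternatives were other ways to combine CpGs, coverage minimums of 20 and 30, other tile and neighbourhood widths, a block for the replicate number, and fits without single pools.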

Additional observations from a re-analysis of the deposited data

Results flagged for a closer look

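In 28 tests on the 5 pools of a group, for the level of each window and of its surroundings, 5 found a pool whose distance from the rest exceeded Dixon's critical value. Chance flags about 1 in 20, which is 1.4 here. Control 3 had 53.8% in the Mcts2 window, where the other 4 controls had 42.2 to 45.4%. The same pool had 41.3% in the Cdh15 window, where the other 4 controls had 53.2 to 57.0%. In the surroundings of Mcts2, control 2 had 46.0% against 43.3 to 43.8% in the other controls, and arsenic 1 had 34.7% against 43.6 to 46.8% in the other arsenic pools. Control 2 also had 46.8% in the surroundings of Peg13, where the other controls had 35.1 to 36.9%.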

How the results depend on the processing

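There were 69 alternative values for the difference between the groups in a window, besides those without a pool each. Of these, 65 kept their direction and their side of p = 0.05 in an exact test. For the replicate block this was a sign-flip test over pairs, too few to reach 0.05, so its side was fixed in advance. Merging strands gave 9.05 points in Zrsr1 (exact permutation p = 0.0159), minus-strand CpGs gave 2.66 points in Mcts2, plus-strand CpGs gave -2.11 points in Nap1l5, and leaving out both arsenic 1 and arsenic 5 gave 1.48 points in Mcts2. The settings by strand, by fragment strand and without both pools were chosen after seeing the data. Leaving out a pool gave -4.50 to 1.99 points in Mcts2 and -6.08 to 1.29 points in Cdh15, and the other 5 windows kept their direction, with p of at least 0.0556 in the exact permutation test. Nnat had 1.19 (without arsenic 5) to 7.61 points (without arsenic 1), Nap1l5 0.145 (without arsenic 3) to 6.16 (without arsenic 1), Inpp5f 1.94 (without arsenic 4) to 7.84 (without arsenic 1), Zrsr1 4.58 to 8.58, and Peg13 -9.93 to -3.80 (without control 2).

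The count of 10 DMCs was 0 with the overdispersion F test and 0 with a difference of at least 20 points, 1 without both arsenic 1 and arsenic 5, and 1 to 15 when a pool was left out, with 1 without arsenic 1 and 6 without control 1. A coverage of at least 20 gave 12 of 165 CpGs, or 7.27%, against 3.74% of all CpGs with that coverage. With all pools, 3.76% of the CpGs in the windows and 2.27% of all CpGs were called. Of all CpGs, 0% were called with the F test and 0.706% at 20 points. Without both arsenic 1 and arsenic 5 it was 1.52%, and without a single pool 1.83 to 2.77%. Deviations of same-numbered pools had correlations of -0.0329 to 0.0699 over tiles, and only replicate 5 correlated best with its own number. Low correlations cannot exclude a shared origin, and the labels do not say whether numbers pair the samples. With the replicate block 11 DMCs were called in the windows, 7 lower and 4 higher, which is 4.14% against 2.33% of all CpGs. The paired difference in Zrsr1 stayed at 6.55 points (exact sign-flip permutation p = 0.375). In every alternative run limma called 0 CpGs, in the windows and over all CpGs, and 0 of the 7 windows. Among the 123717 windows and tiles it called 2 without control 2 and 1 without control 5, and none in the other runs.

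Against surroundings of 50 kb, the differences were -8.73 points in Nnat, 11.5 in Mcts2, -24.1 in Cdh15, -14.0 in Peg13 and -35.1 in Nap1l5 (exact sign-flip permutation p = 0.0137 in Nnat and 0.00195 in the others). With 5 kb they were 3.33 points in Nnat, 9.46 in Cdh15 and -46.4 in Zrsr1 (exact sign-flip permutation p = 0.209, 0.0195 and 0.00195). Unweighted means of CpG levels gave 10.2 points in Mcts2, -7.83 in Cdh15 and 4.87 in Peg13. Without both arsenic 1 and arsenic 5, Cdh15 had -10.1 and Peg13 -0.456 points. Leaving out a pool gave -9.12 to -5.23 points in Cdh15. Where not tied to fewer neighbours by its construction, the cause of a change was not tested. Not run for want of CpGs were a coverage of 30 in Inpp5f and 5 kb for Mcts2, Inpp5f and Peg13. A coverage of at least 20 in all pools was reached by 7 of 34 CpGs in Nap1l5, 4 of 11 in Inpp5f, 6 of 14 in Peg13 and 13 of 15 in Cdh15.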
